A study of Mus musculus with 16 samples.

Results

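The cholesterol genes described here are 28 genes of the mevalonate and sterol pathway, of its regulation, and of sterol uptake, transport and storage. They were picked by symbol, with earlier results of these data known, from the 25239 genes of a raw count table. The table is of mouse hematopoietic stem cells (HSCs), the blood-forming cells of the bone marrow. By role they are 8 enzymes of the mevalonate arm, 11 of the squalene and sterol arm, 4 regulators and 5 genes of uptake, transport and storage. All 28 passed the filter on low counts, as did 14124 genes in all.

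Bulk RNA-seq libraries came from HSCs of mice aged 4 to 6 months with a knockout (KO) or the wild-type form (WT) of Selp, the gene of the adhesion receptor P-selectin. Cells were sampled after culture with added PSGL-1, the main ligand of P-selectin, at 125 ng/mL for 24 hours (3 KO and 2 WT libraries), after culture with vehicle (3 KO and 3 WT), or freshly sorted (2 KO and 3 WT). The StemSpan medium held 10% fetal calf serum, antibiotics and 3 added factors, SCF, IL-11 and the ligand of Flt-3. The sources used here give no length for the vehicle culture, do not describe the Selp allele, and do not say whether replicates were separate mice. The p-values therefore reflect only the spread among these libraries, and part or all of that spread may be technical.

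Cells make cholesterol from acetyl-CoA. The mevalonate arm yields farnesyl diphosphate, which feeds both sterols and the lipid tails of prenylated proteins, and the later arm turns it through squalene and lanosterol into cholesterol. When sterols in the endoplasmic reticulum run low, the escort protein SCAP carries the transcription factor precursor SREBP2 (Srebf2) to the Golgi, where it is cut and freed to switch on most genes of the pathway. The INSIG proteins hold SCAP back when sterols are plentiful.

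Libraries held 12590539 to 24690824 counts, so the detection floor of 3 counts lay at 0.122 to 0.238 CPM (a gene's counts scaled by the library total), a limit that covers counting error only. Selp was at 0 to 12.4 CPM in KO and 16.8 to 183 CPM in WT libraries. Of 9 HSC markers, 7 were found in every library, Slamf1 was at 0 in 3 and Fgd5 in 1, and the lists of other cell types were mixed. The T-cell genes Cd3e, Cd3d and Cd2, the B-cell gene Ebf1 and the globin genes Hba-a1 and Hbb-bt were at 0 in all 16. Klf1 and Epor of the red cell lineage (up to 88.8 and 83.9 CPM) and Nkg7 of NK and T cells (up to 91.5 CPM) were at 0 in only 2, 1 and 1. The 5 megakaryocyte and platelet markers were found in sum at 596 to 1721 CPM over the 16 libraries. One library stood apart: in WT PSGL-1 replicate 1 only 9035 genes were detected, while each of the other 15 libraries held 11101 to 13480. In it Mvd and Hsd17b7 had 0 counts, whereas every member had at least 25 counts in each of the other 15 libraries. Results of the groups that hold it are given with and without it. It also enters the spread estimate that all comparisons share. The bulk libraries cannot tell a change in the share of a cell type from a change in RNA per cell.

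To show what lies upstream of genes that moved most and least, the promoter windows of 6 members are printed, each from 250 bases before to 50 bases after the annotated start (RefSeq, GRCm38.p6, 5′ to 3′ on the gene's strand). The 3 members with the smallest p ranks over both vehicle comparisons and a RefSeq promoter entry were Hmgcs1 (chr13:119690101-119690400, plus strand), Cyp51 (chr5:4104648-4104947, minus strand) and Acat2 (chr17:12960676-12960975, minus strand). The 3 with the largest were Insig2 (chr1:121332540-121332839, minus strand, the most upstream of 3 annotated windows), Scap (chr9:110333038-110333337, plus strand, the more upstream of 2) and Npc2 (chr12:84773063-84773362, minus strand), which tied in rank with Ggps1 and came first only by its place in the table. Capitals mark matches, on either strand, to TCACNCCAC (a form of the sterol regulatory element bound by SREBPs), CCAAT (the NF-Y box), GGGCGG (the Sp1 box) and CACGTG (an E-box).
Hmgcs1: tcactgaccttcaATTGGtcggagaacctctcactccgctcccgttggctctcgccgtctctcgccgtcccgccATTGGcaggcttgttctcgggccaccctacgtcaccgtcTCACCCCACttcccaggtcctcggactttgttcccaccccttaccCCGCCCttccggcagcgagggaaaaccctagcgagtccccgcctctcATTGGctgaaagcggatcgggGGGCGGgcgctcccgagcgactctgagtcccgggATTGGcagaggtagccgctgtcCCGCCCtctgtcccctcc
Cyp51: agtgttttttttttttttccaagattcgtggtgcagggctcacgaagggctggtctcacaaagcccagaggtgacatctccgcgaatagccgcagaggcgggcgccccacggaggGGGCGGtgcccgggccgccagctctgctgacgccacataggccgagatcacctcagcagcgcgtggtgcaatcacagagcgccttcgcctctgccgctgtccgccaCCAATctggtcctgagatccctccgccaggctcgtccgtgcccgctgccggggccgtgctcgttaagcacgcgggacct
Acat2: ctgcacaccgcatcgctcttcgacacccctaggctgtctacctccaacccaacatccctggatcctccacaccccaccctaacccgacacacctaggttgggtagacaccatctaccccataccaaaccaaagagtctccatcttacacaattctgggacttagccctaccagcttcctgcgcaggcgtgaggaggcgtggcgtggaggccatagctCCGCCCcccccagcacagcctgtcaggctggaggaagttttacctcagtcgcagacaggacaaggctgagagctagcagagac
Insig2: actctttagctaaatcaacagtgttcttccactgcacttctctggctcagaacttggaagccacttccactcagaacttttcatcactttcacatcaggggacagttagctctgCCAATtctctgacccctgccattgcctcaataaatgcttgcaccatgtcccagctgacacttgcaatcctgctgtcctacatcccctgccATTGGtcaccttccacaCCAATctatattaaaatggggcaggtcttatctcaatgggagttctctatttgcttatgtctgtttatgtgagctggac
Scap: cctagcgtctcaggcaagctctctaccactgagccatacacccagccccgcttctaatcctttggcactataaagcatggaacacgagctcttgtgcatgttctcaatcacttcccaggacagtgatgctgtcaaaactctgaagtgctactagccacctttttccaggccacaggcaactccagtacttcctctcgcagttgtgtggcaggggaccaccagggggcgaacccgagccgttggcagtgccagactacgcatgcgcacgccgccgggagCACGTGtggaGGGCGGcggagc
Npc2: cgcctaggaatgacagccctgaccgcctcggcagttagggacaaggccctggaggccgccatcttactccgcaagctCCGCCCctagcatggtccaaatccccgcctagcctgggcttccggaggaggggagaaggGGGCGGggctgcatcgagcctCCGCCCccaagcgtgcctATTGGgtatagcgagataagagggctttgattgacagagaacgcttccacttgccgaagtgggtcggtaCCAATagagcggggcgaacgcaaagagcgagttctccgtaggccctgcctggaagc
In these windows no matches of different motifs overlapped. Hmgcs1 held 1 TCACNCCAC, 4 CCAAT and 3 GGGCGG matches, and was the only member of the 22 with a promoter entry to hold TCACNCCAC, which occurred in 1.44% of all 27025 genes with an entry. CCAAT occurred in 20 of the 22 members (90.9%), in 41.1% of all genes with an entry and in 42.6% of the 11119 tested ones. GGGCGG also occurred in 20 (90.9%), against 38.2% of all genes and 66.5% of tested genes, and CACGTG in 5 (22.7%), against 8.09% and 11.6%. The poorly responding Insig2, Scap and Npc2 windows held CCAAT or GGGCGG matches too. These matches are letters in a window and were not tested as sites.

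Many of the enzymes stood higher in culture in both genotypes. In KO cells 12 of 28 members rose in vehicle culture against fresh cells and none fell (edgeR quasi-likelihood test, p under 0.05 after Benjamini-Hochberg adjustment over the 14124 tested genes), where 1.23% of all tested genes rose and 0.538% fell. In WT cells 13 rose and none fell, where 1.23% of tested genes rose and 0.404% fell. All 12 members called in KO were among the 13 called in WT (100% and 92.3% of each list), the other being Mvk. The median log2 fold change of the 28 was 1.93 in KO and 1.63 in WT, whereas the medians of all tested genes were -0.02 and -0.07. In each genotype 26 members had a value above 0, where 47.5% of tested genes did in KO and 45.5% in WT. In KO the libraries of 23 members lay above all fresh ones without overlap and none below, where 15.3% and 20.3% of tested genes did so. In WT 20 members lay above and 1 below, where the shares of tested genes were 8.38% and 14.8%. Without the sparse WT PSGL-1 replicate 1, which enters the shared spread estimate, the members' medians were 1.95 in KO and 1.62 in WT. Without it 17 members passed in KO and 16 in WT. Calls over all genes also rose, to 554 in KO and 440 in WT of 15095, from 250 and 231 of 14124. The members added were Mvd, Sc5d and Scarb1 in both genotypes and Tm7sf2 and Nsdhl in KO.

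The rise differed by role in size. Summed over its 8 members, the mevalonate arm stood at 1940 ± 355 CPM in KO vehicle culture (SD, n = 3) and 241.4 ± 65.0 CPM in KO fresh cells (n = 2), a ratio of 8.04, and at 1831 ± 168 and 341.2 ± 54.9 CPM in the WT groups (n = 3 each), a ratio of 5.37. The sterol arm stood at 2501 ± 354 and 454.8 ± 53.9 CPM in KO (5.50) and at 2301 ± 319 and 523 ± 60.0 CPM in WT (4.40). The 4 regulators summed to 923 ± 107 and 456.6 ± 194 CPM in KO (2.02), and to 1052 ± 199 and 633 ± 21.5 CPM in WT (1.66). The 5 transport genes summed to 593.1 ± 74.2 and 376.5 ± 38.5 CPM in KO (1.58), and to 630.0 ± 60.0 and 413.5 ± 25.5 CPM in WT (1.52). Synthesis enzymes therefore took a larger part of the members' reads in culture: the mevalonate share was 29.7% to 35.0% over the 11 cultured libraries and 13.8% to 20.8% over the 5 fresh ones. Much of the mevalonate sum was Fdps alone, at a mean of 828 CPM in KO and 833 CPM in WT vehicle culture. Fdps took 11.8% to 23.9% of the members' reads in cultured and 2.42% to 5.75% in fresh libraries. The median log2 fold change was 3.37 in KO and 2.59 in WT for the mevalonate members, and 2.16 and 2.27 for the sterol members.

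**Figure D1:**
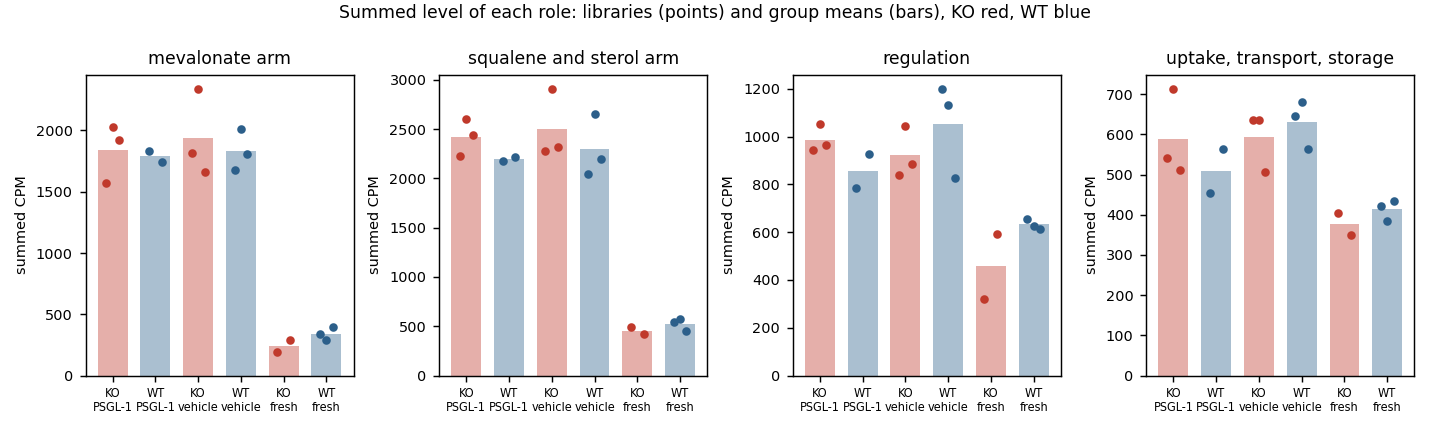
Summed CPM of the 8 mevalonate, 11 sterol, 4 regulatory and 5 transport members in each library (points; KO red, WT blue), with bars for group means on axes that start at 0. The cultured groups stand well above both fresh groups in the 2 synthesis panels and by less in the regulation and transport panels.

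In the mevalonate arm, Fdps, the synthase that makes farnesyl diphosphate, had the smallest p of all members in both genotypes. It was at 798, 984 and 703 CPM in KO vehicle cultures against 34.2 and 60.5 CPM in KO fresh cells, and at 764, 919.7 and 816 CPM in WT vehicle cultures against 101, 71.0 and 109 CPM in WT fresh cells. No cultured library came near a fresh one. The log2 fold change was 4.18 (SE 0.31, edgeR adjusted p = 9.30e-06) in KO, or 18.1-fold, and 3.25 (SE 0.25, adjusted p = 8.72e-06) in WT, or 9.49-fold. Hmgcs1, the synthase of HMG-CoA, was at 334, 472 and 241 CPM in KO vehicle cultures against 22.3 and 31.5 CPM in KO fresh cells, and at 279, 391 and 254 CPM in WT vehicle cultures against 32.5, 32.5 and 37.6 CPM in WT fresh cells. Its groups did not overlap either, with log2 fold changes of 3.74 (SE 0.40, edgeR adjusted p = 0.000280) and 3.27 (SE 0.33, adjusted p = 0.000108). Acat2, the cytosolic thiolase that joins acetyl-CoA units at the start of the pathway, was at 314, 391 and 369 CPM in KO vehicle cultures against 25.9 and 65.2 CPM in KO fresh cells. In WT it was at 311, 254 and 332 CPM in vehicle cultures against 64.4, 51.5 and 99.3 CPM in fresh cells. Every cultured library again lay above every fresh one, with log2 fold changes of 3.04 (SE 0.38, edgeR adjusted p = 0.000773) in KO and 2.16 (SE 0.31, adjusted p = 0.00227) in WT.

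Idi1, the isomerase of the isoprenoid units, rose in both genotypes, with log2 fold changes of 3.70 (KO, SE 0.64, edgeR adjusted p = 0.00724) and 2.38 (WT, SE 0.51, adjusted p = 0.0264). Its WT call was lost when any of the 6 WT libraries was left out, with adjusted p of 0.0518, 0.130 and 0.136 without fresh replicates 1, 2 and 3 and 0.0613, 0.0600 and 0.0759 without vehicle replicates 1, 2 and 3. Mvk, the kinase that phosphorylates mevalonate, passed in WT (2.79, SE 0.60, edgeR adjusted p = 0.0266) and not in KO (1.89, SE 0.67, adjusted p = 0.219). Without WT fresh replicates 2 or 3 its adjusted p was 0.149 or 0.0877, and without WT vehicle replicates 1, 2 or 3 it was 0.0583, 0.0626 or 0.0770, and the call was also lost with the groups fitted alone. Pmvk and Mvd, the next kinase and the decarboxylase of the arm, passed in neither genotype in the edgeR model of all 16 libraries. Their libraries did not overlap in either, and Mvd had large log2 fold changes with wide errors, 3.75 (SE 1.47) in KO and 2.91 (SE 1.19) in WT. Mvd did pass in DESeq2 in KO (adjusted p = 0.0440) and in limma in WT (adjusted p = 0.0434). Ggps1, which makes the geranylgeranyl diphosphate used in protein prenylation, was the 1 mevalonate member that did not follow. It was at 31.1, 44.1 and 22.7 CPM in KO vehicle cultures against 20.2 and 58.2 CPM in KO fresh cells, and at 5.33, 4.16 and 24.5 CPM in WT vehicle cultures against 34.0, 52.3 and 53.2 CPM in WT fresh cells. The KO groups overlapped and the WT ones did not, but neither log2 fold change passed, at -0.20 (SE 1.01, edgeR adjusted p = 1.00) and -1.91 (SE 0.94, adjusted p = 0.447). Leaving out KO fresh replicate 2 gave a KO value of 0.68.

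**Figure D2:**
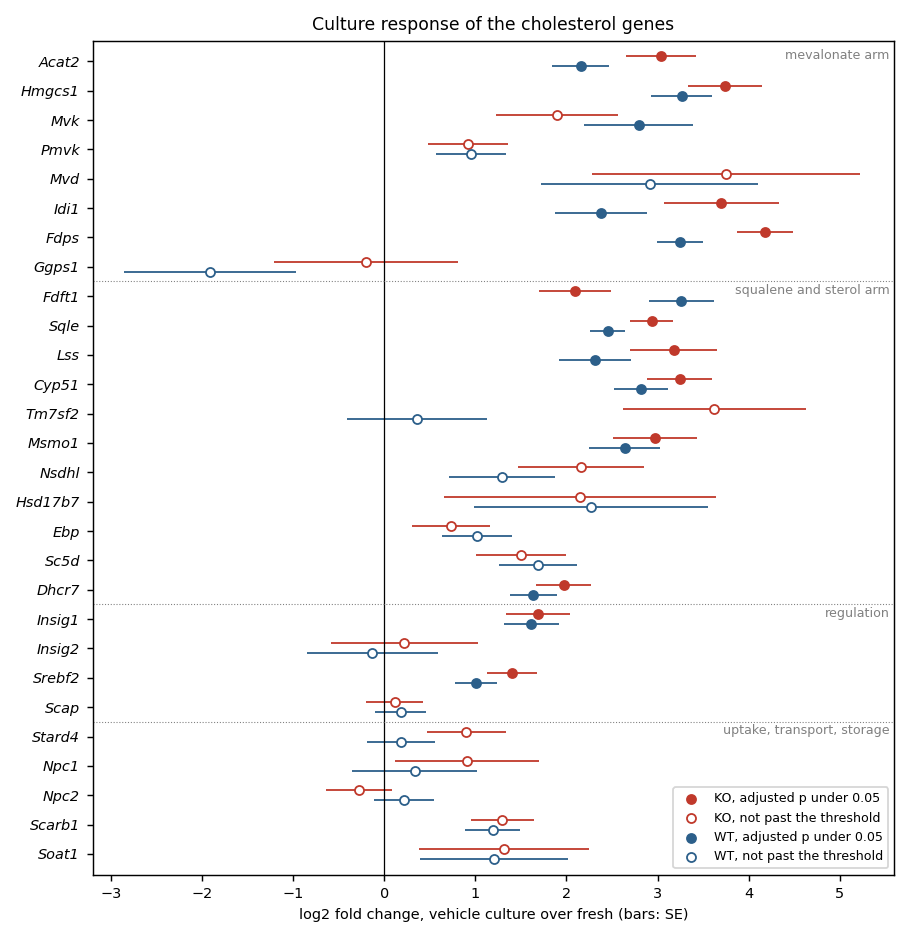
Log2 fold change of vehicle culture over fresh cells for each of the 28 members (KO red, above; WT blue, below), with bars for the SE and filled points where the edgeR adjusted p was under 0.05. Filled points lie in the synthesis arms and at Insig1 and Srebf2, and the transport genes hold none.

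In the squalene and sterol arm 6 of 11 members rose in each genotype, and all 11 had a log2 fold change above 0 in both. Sqle, the squalene epoxidase and a rate-limiting step of this arm, was at 481, 645 and 519 CPM in KO vehicle cultures against 76.1 and 69.9 CPM in KO fresh cells, and at 416, 564 and 505 CPM in WT vehicle cultures against 82.9, 104 and 104 CPM in WT fresh cells. Its fresh libraries were tightly grouped and far below the cultured ones, and its log2 fold changes had the smallest errors of all members, 2.94 (SE 0.23, edgeR adjusted p = 9.30e-06) in KO and 2.45 (SE 0.19, adjusted p = 8.86e-06) in WT. Cyp51, the lanosterol demethylase, was at 412, 573 and 372 CPM in KO vehicle cultures against 63.5 and 32.6 CPM in KO fresh cells, and at 354, 397 and 299 CPM in WT vehicle cultures against 54.5, 63.2 and 41.1 CPM in WT fresh cells. The groups did not overlap, with log2 fold changes of 3.24 (SE 0.36) and 2.82 (SE 0.30). Msmo1, the sterol methyl oxidase of the next steps, was at 303, 403 and 341 CPM in KO vehicle cultures against 63.9 and 24.6 CPM in KO fresh cells, and at 294, 372 and 331 CPM in WT vehicle cultures against 76.4, 67.9 and 27.2 CPM in WT fresh cells. Its log2 fold changes were 2.98 (SE 0.46) and 2.64 (SE 0.38), again without overlap.

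Dhcr7, which makes cholesterol from 7-dehydrocholesterol, was at 232, 314 and 206 CPM in KO vehicle cultures against 40.9 and 92.4 CPM in KO fresh cells, and at 254, 288 and 245 CPM in WT vehicle cultures against 94.7, 96.7 and 79.3 CPM in WT fresh cells. Its rise was smaller, at 1.97 (SE 0.30) and 1.64 (SE 0.26) on the log2 scale. Lss, the lanosterol synthase, was at 198, 268 and 239 CPM in KO vehicle cultures against 26.8 and 26.2 CPM in KO fresh cells, and at 131, 289 and 179 CPM in WT vehicle cultures against 31.6, 72.6 and 25.1 CPM in WT fresh cells, with log2 fold changes of 3.18 (SE 0.48) and 2.32 (SE 0.39). All groups of both genes were apart. Fdft1, the squalene synthase at the branch into sterols, was at 272, 314 and 269.8 CPM in KO vehicle cultures against 85.7 and 48.8 CPM in KO fresh cells, and at 295, 391 and 219 CPM in WT vehicle cultures against 26.5, 54.0 and 20.6 CPM in WT fresh cells. It was the 1 gene called in both genotypes whose log2 fold change was smaller in KO, 2.09 (SE 0.40, edgeR adjusted p = 0.0120), than in WT, 3.26 (SE 0.36, adjusted p = 0.000175), and its KO call was lost without KO fresh replicate 2 (1.72, adjusted p = 0.0618).

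The other 5 sterol genes, Tm7sf2, Nsdhl, Hsd17b7, Ebp and Sc5d, passed in neither genotype in the edgeR model of all 16 libraries. Their log2 fold changes were 0.73 to 3.62 in KO and 0.36 to 2.27 in WT. DESeq2 called Tm7sf2 (adjusted p = 6.39e-05), Nsdhl (0.0304) and Sc5d (0.0422) in KO and Sc5d (0.00430) in WT. It called 3.68% of tested genes higher in KO and 3.02% in WT. In limma Sc5d passed in WT (adjusted p = 0.0436). Tm7sf2, a sterol C14 reductase, was at 25.3, 32.7 and 28.6 CPM in KO vehicle cultures against 2.11 and 2.69 CPM in KO fresh cells, and at 7.97, 11.2 and 30.1 CPM in WT vehicle cultures against 20.6, 14.1 and 6.73 CPM in WT fresh cells. The KO groups were far apart and the WT groups overlapped. The log2 fold changes were 3.62 (SE 1.01, edgeR adjusted p = 0.0914) and 0.36 (SE 0.77, adjusted p = 0.954), and the WT value was -0.47 without WT vehicle replicate 3.

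**Figure D3:**
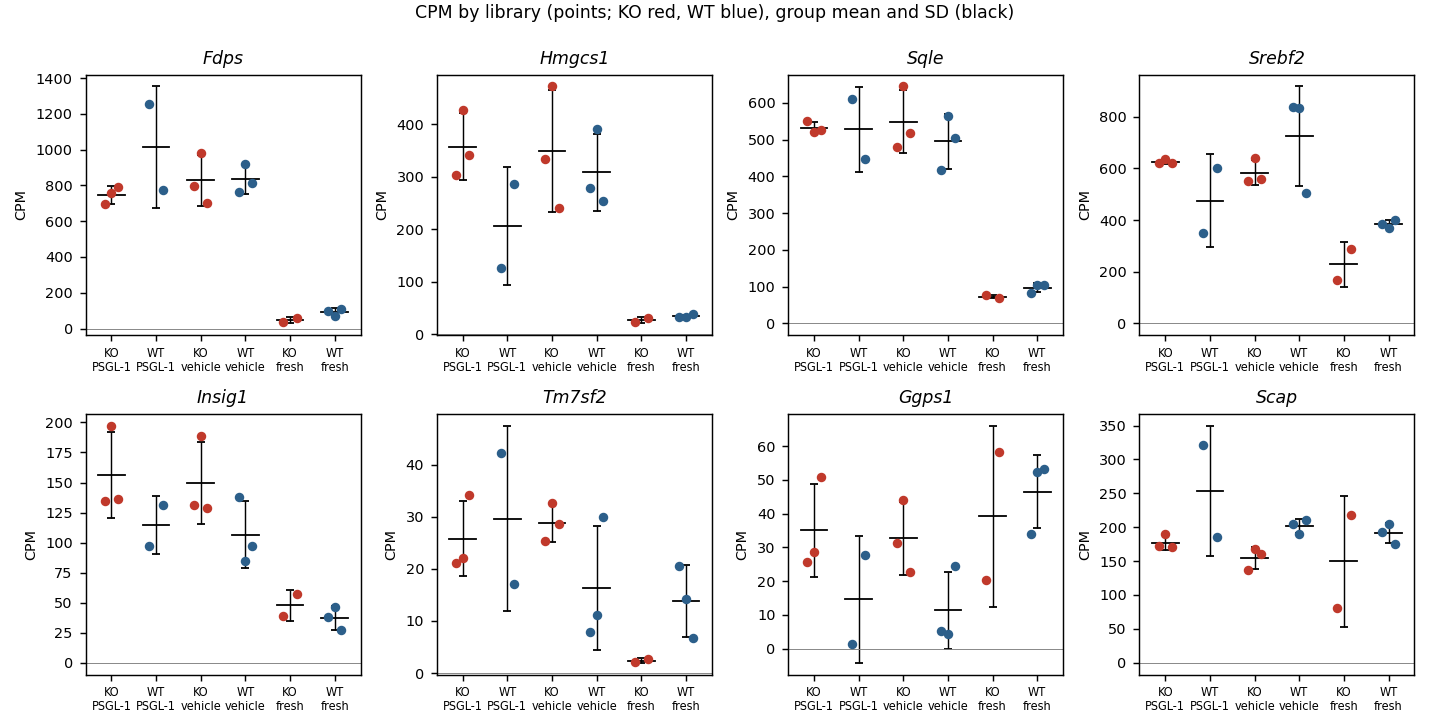
CPM of 8 members in every library (points; KO red, WT blue), with the group mean and SD in black and linear axes. Fdps, Hmgcs1 and Sqle separate the cultured from the fresh groups completely and Insig1 by less. Srebf2 does so except for the sparse WT PSGL-1 replicate 1 (348 CPM), and Tm7sf2, Ggps1 and Scap do not.

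Of the 4 regulators, Srebf2 and Insig1 rose and Insig2 and Scap did not pass. Srebf2 was at 552, 639 and 559 CPM in KO vehicle cultures against 167 and 289.6 CPM in KO fresh cells, and at 837, 835 and 504 CPM in WT vehicle cultures against 384, 368 and 400.0 CPM in WT fresh cells. All cultured libraries lay above the fresh ones, with log2 fold changes of 1.40 (SE 0.27, edgeR adjusted p = 0.0126) and 1.01 (SE 0.23, adjusted p = 0.0411), less than those of the enzymes called. The KO call did not hold without KO fresh replicate 1 (edgeR adjusted p = 0.213). The WT call did not hold when WT fresh replicate 1, 2 or 3 was left out (edgeR adjusted p = 0.123, 0.172 and 0.126), nor when WT vehicle replicate 1 or 2 was (0.151 and 0.144). It was also lost in 4 of 8 other settings: RLE scaling, no filter on low counts, the block by label set and the groups alone.

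Insig1, itself known as a target of SREBPs, was at 131, 189 and 129 CPM in KO vehicle cultures against 38.7 and 56.9 CPM in KO fresh cells, and at 138, 84.4 and 97.1 CPM in WT vehicle cultures against 38.4, 46.2 and 26.8 CPM in WT fresh cells. The groups did not overlap, with log2 fold changes of 1.69 (SE 0.35, edgeR adjusted p = 0.0213) and 1.62 (SE 0.31, adjusted p = 0.0138). Its KO call was lost when KO fresh replicate 1 (edgeR adjusted p = 0.268) or KO vehicle replicate 2 (0.0930) was left out, and narrowly when KO vehicle replicate 1 was. It was also lost in limma (adjusted p = 0.0599) and with the block by label set. Its WT call was lost with the groups alone, and without WT fresh replicate 3 (0.0780) or WT vehicle replicate 1 (0.0613). Insig2, the second INSIG gene, was at 21.8, 49.2 and 35 CPM in KO vehicle cultures against 32.2 and 29.5 CPM in KO fresh cells, and at 19.7, 19.7 and 14.4 CPM in WT vehicle cultures against 40.7, 8.74 and 13.1 CPM in WT fresh cells. Its groups overlapped, with log2 fold changes of 0.22 (SE 0.81) and -0.13 (SE 0.72), and the signs turned without KO vehicle replicate 2 (-0.09) and without WT fresh replicate 1 (0.82). Scap, the escort protein, was at 136, 167 and 161 CPM in KO vehicle cultures against 81.1 and 218 CPM in KO fresh cells, and at 205, 191 and 210.5 CPM in WT vehicle cultures against 194, 204 and 175 CPM in WT fresh cells. It overlapped in both genotypes, and its 95% intervals ran from -0.54 to 0.77 in KO and from -0.41 to 0.77 in WT on the log2 scale. Its KO value was 0.12, and leaving out KO fresh replicate 1 turned it to -0.41.

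None of the 5 uptake, transport and storage genes passed in either genotype in the edgeR model of all 16 libraries. Scarb1, a receptor that takes up cholesterol from high-density lipoprotein, came nearest, at 269.9, 254 and 235 CPM in KO vehicle cultures against 118 and 90.7 CPM in KO fresh cells, and at 324, 320.3 and 239.9 CPM in WT vehicle cultures against 149, 139 and 125 CPM in WT fresh cells. The groups did not overlap, and the log2 fold changes were 1.30 (SE 0.35, edgeR adjusted p = 0.0793) and 1.19 (SE 0.30, adjusted p = 0.0644). Scarb1 did pass in DESeq2 (adjusted p = 0.0144 in KO and 0.00994 in WT) and in limma (0.0358 and 0.00945). It also passed in both genotypes with the groups fitted alone. Soat1, which esterifies cholesterol for storage, was at 92.5, 97.5 and 37.5 CPM in KO vehicle cultures against 32.5 and 29.5 CPM in KO fresh cells, and at 74.9, 60.2 and 67.3 CPM in WT vehicle cultures against 26.5, 40.3 and 27.6 CPM in WT fresh cells. Its groups were apart too, but its errors were wide, 1.32 (SE 0.93) and 1.20 (SE 0.81).

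Stard4, a cytosolic sterol carrier, was at 85.2, 104 and 101 CPM in KO vehicle cultures against 36.6 and 71.0 CPM in KO fresh cells, and at 117, 42.7 and 84.4 CPM in WT vehicle cultures against 58.9, 81.3 and 89.6 CPM in WT fresh cells. Npc1 and Npc2 export cholesterol from lysosomes. Npc1 was at 26, 25.1 and 27.1 CPM in KO vehicle cultures against 11 and 17.6 CPM in KO fresh cells, and at 29.2, 78.7 and 28.1 CPM in WT vehicle cultures against 33.2, 33.0 and 48.4 CPM in WT fresh cells. Npc2 was at 162, 156 and 107 CPM in KO vehicle cultures against 206 and 140.4 CPM in KO fresh cells, and at 100.1, 179 and 144 CPM in WT vehicle cultures against 154, 91.5 and 144 CPM in WT fresh cells. Stard4 and Npc1 were apart in KO and overlapped in WT, and Npc2 overlapped in both. Stard4 had log2 fold changes of 0.90 (SE 0.43) in KO and 0.19 (SE 0.37) in WT, Npc1 of 0.91 (SE 0.79) and 0.34 (SE 0.68), and Npc2 of -0.28 (SE 0.37) and 0.22 (SE 0.33). The WT signs turned for Stard4 without WT vehicle replicate 1 (-0.15) and for Npc1 without WT vehicle replicate 2 (-0.31), and the KO sign for Npc2 without KO fresh replicate 1 (0.10).

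Per length of merged exons, the order of levels also changed with culture. In CPM per kb, the highest members in KO vehicle culture were Fdps (197 ± 33.9), Acat2 (141 ± 15.5), Cyp51 (103 ± 24.1) and Sqle (98.9 ± 15.4; SD, n = 3), the last pair closer than their SDs. In KO fresh cells they were Npc2 (31.8 ± 8.49), Srebf2 (31.8 ± 12) and Pmvk (26.1 ± 13; n = 2), which did not differ beyond their spread. In WT vehicle culture they were Fdps (198 ± 18.8), Acat2 (118 ± 15.8), Srebf2 (101 ± 26.7) and Sqle (89.2 ± 13.4), with the last 3 overlapping in their SDs. In WT fresh cells Srebf2 (53.5 ± 2.23) stood clear of Acat2 (28.2 ± 9.71), Pmvk (27.4 ± 4.21) and Scap (25.7 ± 1.96; n = 3 each). Fdps ranked 12th in KO fresh cells and 6th in WT fresh cells and first in all cultured groups. In GENCODE vM21, 7 of the 28 genes overlap another protein-coding gene, Fdps and Tm7sf2 on the same strand and Cyp51, Fdft1, Ggps1, Mvd and Npc1 on the opposite strand, and the strand setting of the counting is not given, so reads of such pairs may be shared.

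Cultures with PSGL-1 stood above fresh cells by similar amounts. These comparisons share their fresh libraries with those of vehicle, so the values are given side by side and not as a second test. In KO 12 members rose and none fell, where 1.34% of tested genes rose and 0.658% fell, and the 12 were those called with vehicle. The KO libraries of 22 members lay above all fresh ones and of none below, where 14.8% and 19.2% of tested genes did so. In WT 9 rose and none fell, where 0.906% rose and 0.354% fell, and 14 lay above without overlap and 1 below, where the shares of tested genes were 9.69% and 20.4%. Fdps had log2 fold changes of 4.02 (SE 0.31) in KO and 3.52 (SE 0.26) in WT, Sqle of 2.88 (SE 0.23) and 2.53 (SE 0.21), and Cyp51 of 3.14 (SE 0.35) and 2.87 (SE 0.31). Some calls again rested on single libraries. In KO those of Dhcr7, Lss, Insig1 and Srebf2 were lost without KO fresh replicate 1 (edgeR adjusted p = 0.0711, 0.0577, 0.234 and 0.158), that of Fdft1 without KO fresh replicate 2 (0.0711), and that of Insig1 without KO PSGL-1 replicate 2 (0.0735). In WT the call of Insig1 was the only one lost when a WT fresh library was left out, replicate 1 or 3 (0.0538 and 0.0725). With the groups fitted alone, 8 members were called in KO, where 0.971% of 12767 genes were. In WT 0 members and 0 of 12521 genes were called in such a fit. Without the sparse WT PSGL-1 replicate 1, the WT median of the members was 1.66, where that of all tested genes was -0.09. Without WT PSGL-1 replicate 2, which leaves the sparse library alone, it was 1.04, where that of all tested genes was -0.95. Mvd, Ggps1, Nsdhl, Hsd17b7 and Soat1 lay furthest below 0 in that fit, at -11.0, -5.12, -1.88, -10.9 and -4.22.

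Between vehicle and PSGL-1 itself no member passed the test in either genotype. In KO, 0 of 28 passed in edgeR, DESeq2 and limma, 0 had an unadjusted p under 0.05, and the median log2 fold change was -0.07, where edgeR called 0% of tested genes and 1.40% had an unadjusted p under 0.05. The members' values lay between -0.41 and 0.19. For Fdps, at 694, 756 and 789.8 CPM with PSGL-1 against 798, 984 and 703 CPM with vehicle, the groups overlapped and the 95% interval ran from -0.64 to 0.33. For Sqle, the epoxidase, at 549.9, 521 and 525 CPM against 481, 645 and 519 CPM, it ran from -0.44 to 0.34. Srebf2 was at 621, 635 and 622 CPM with PSGL-1 against 552, 639 and 559 CPM with vehicle, with an interval from -0.40 to 0.59. Changes larger than these bounds lie outside the intervals of these 3 genes. Scap, at 172, 190.0 and 170.0 CPM against 136, 167 and 161 CPM, was the 1 member whose groups did not overlap, where 4.24% of tested genes lay above and 3.74% below, with a log2 fold change of 0.19 (SE 0.28, edgeR adjusted p = 1.00). Sc5d, the sterol C5 desaturase, was at 72.4, 95.9 and 62.2 CPM against 82.4, 103 and 87.0 CPM, and Npc1 at 21.9, 25.2 and 12.3 CPM against 26, 25.1 and 27.1 CPM. Both overlapped. DESeq2 called 0.29% of all genes here.

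In WT, 0 of 28 members passed in edgeR, DESeq2 and limma for PSGL-1 against vehicle, 2 had an unadjusted p under 0.05, and the median was -0.09, where edgeR called 0% of tested genes, 5.69% had an unadjusted p under 0.05 and the median of all was -0.11. DESeq2 called 1.62% of all genes. The 2 were Srebf2, at 348 and 603 CPM with PSGL-1 against 837, 835 and 504 CPM with vehicle, and Scarb1, at 104 and 252 CPM against 324, 320.3 and 239.9 CPM. Both groups overlapped, and the lowest value of each gene was in the sparse library. The log2 fold changes were -0.61 (SE 0.26, edgeR adjusted p = 0.774) and -0.72 (SE 0.34, adjusted p = 0.774). Mvk was at 27.6 and 59.4 CPM with PSGL-1 against 84.0, 100.2 and 104 CPM with vehicle, without overlap, and Hmgcs1 at 127 and 286 CPM against 279, 391 and 254 CPM, with overlap. No other member was free of overlap, where 5.87% of tested genes lay above and 8.10% below. Without WT PSGL-1 replicate 1 no member was called. Without replicate 2, so with the sparse library as the only one, the members' median was -0.36, where that of all tested genes was -0.61. Mvd, Hsd17b7 and Soat1 lay furthest below 0, at -13.9, -13.2 and -5.42, and Npc1 and Tm7sf2 furthest above, at 1.40 and 1.29. The lone library is there assumed to vary like the other groups. The difference of the PSGL-1 response between KO and WT was called for 0 members, with a median of 0.06 and 0 at an unadjusted p under 0.05, where 0% of tested genes were called and 4.33% had such a p. Without WT PSGL-1 replicate 2 the median of this difference was 0.40 for the members and 0.81 for all tested genes.

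**Figure D4:**
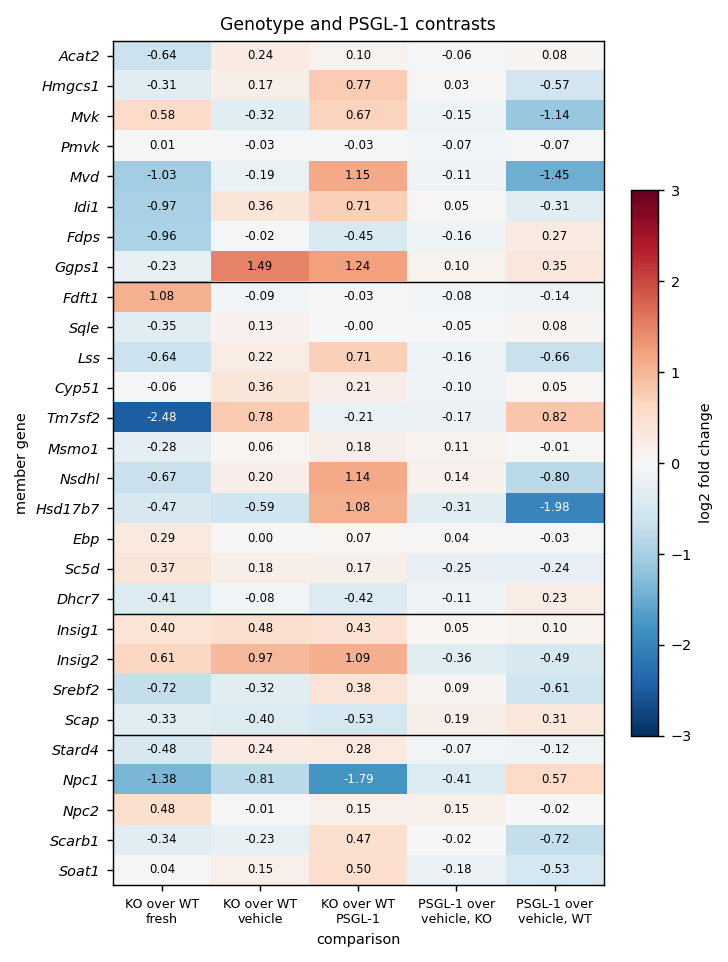
Log2 fold changes of the 28 members, printed in each cell, for KO over WT in fresh cells, vehicle and PSGL-1 cultures and for PSGL-1 over vehicle in KO and WT cells. No cell passed the edgeR test, most fresh values lie below 0, and the WT PSGL-1 group, which holds the sparse library, enters the third and the fifth column.

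In fresh cells no member passed for KO against WT, and 9 of 28 had a log2 fold change above 0, where 48.8% of tested genes did. edgeR, DESeq2 and limma each called 0 of 28, where edgeR called 0.00708% of tested genes (1 gene) and DESeq2 0.658%. The median log2 fold change was -0.34, where that of all tested genes was 0.00, and it was -0.18 without KO fresh replicate 1. In 9 members (32.1%) both KO libraries lay below all 3 WT libraries, and in none above, where 9.95% of tested genes lay below and 9.10% above. An unadjusted p under 0.05 was found for 4 members (14.3%), where 2.84% of tested genes had one. The summed level of 10 cell cycle genes was lower in KO fresh cells as well, at 917 ± 239 CPM against 1468 ± 131 CPM in WT fresh cells, all 10 with negative and none with a passing log2 fold change, and their part in the members' values was not tested. Summed markers of granulocytes and monocytes were at 649 to 907 CPM in KO fresh cells against 475 to 538 CPM in WT fresh cells, and those of T and NK cells at 17 to 42.9 CPM against 59.3 to 91.5 CPM, and their part was not tested either.

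The 4 members with an unadjusted p under 0.05 in fresh cells were Fdps, Srebf2, Tm7sf2 and Fdft1. Fdps was at 34.2 and 60.5 CPM in KO against 101, 71.0 and 109 CPM in WT. The log2 difference was -0.96 (SE 0.26). Srebf2 was at 167 and 289.6 CPM in KO against 384, 368 and 400.0 CPM in WT (-0.72, SE 0.26). Tm7sf2 was at 2.11 and 2.69 CPM in KO against 20.6, 14.1 and 6.73 CPM in WT (-2.48, SE 0.95). These 3 genes did not overlap between genotypes, and each had an edgeR adjusted p of 1.00. Fdft1 went the other way, at 85.7 and 48.8 CPM in KO against 26.5, 54.0 and 20.6 CPM in WT, with overlap and a log2 difference of 1.08 (SE 0.36), also with an edgeR adjusted p of 1.00. Leaving out single libraries moved Fdps between -1.36 and -0.66 and Fdft1 between 0.52 and 1.56, and Srebf2 to -0.43 at the smallest.

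After vehicle culture the genotypes lay closer together. No member passed for KO against WT in edgeR, DESeq2 or limma and 0 had an unadjusted p under 0.05, where edgeR called 0.00708% of tested genes, DESeq2 called 0.786% and 2.83% had an edgeR p of that size. The median was 0.09. Summed over the members, KO cultures held 5957 ± 847 CPM and WT cultures 5814 ± 582 CPM (n = 3 each), while KO fresh cells held 1529 ± 167 CPM (n = 2) and WT fresh cells 1911 ± 44.8 CPM (n = 3). Insig1, at 131, 189 and 129 CPM in KO against 138, 84.4 and 97.1 CPM in WT, had the smallest p, with overlap and a log2 difference of 0.48 (SE 0.30). Ggps1 was at 31.1, 44.1 and 22.7 CPM in KO against 5.33, 4.16 and 24.5 CPM in WT, also with overlap (1.49, SE 0.93). Scap, at 136, 167 and 161 CPM in KO against 205, 191 and 210.5 CPM in WT, was lower in each KO library (-0.40, SE 0.28). Idi1 and Insig2 lay higher in every KO library and Scap and Npc1 lower, where 5.76% and 3.72% of tested genes did so. Srebf2, at 552, 639 and 559 CPM in KO against 837, 835 and 504 CPM in WT, overlapped. Fdps differed by -0.02, with a 95% interval from -0.51 to 0.46, and Sqle by 0.13, from -0.26 to 0.52.

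The culture response itself was compared between genotypes by the difference of the 2 log2 fold changes. No member passed, and 3 had an unadjusted p under 0.05, where 0% of tested genes passed and 2.50% had such a p. The median difference, KO minus WT, was 0.37 for the members and 0.04 for all tested genes, and 20 of 28 were above 0, where 52.0% of tested genes were. The 3 were Tm7sf2 (3.27, SE 1.21), Fdps (0.93, SE 0.34) and Fdft1 (-1.17, SE 0.49), each with an edgeR adjusted p of 1.00. Each is a gene whose fresh level differed at an unadjusted p under 0.05, and the fresh libraries enter both comparisons. Without KO vehicle replicate 2 the median was 0.20.

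With PSGL-1 in the medium, 0 members passed for KO against WT in edgeR, DESeq2 and limma, and 2 had an unadjusted p under 0.05, where edgeR called 0.00708% of tested genes, DESeq2 called 1.77% and 5.81% had an edgeR p of that size. The median was 0.25, and that of all tested genes 0.17. Npc1 was at 21.9, 25.2 and 12.3 CPM in KO against 123 and 13.3 CPM in WT, and Hmgcs1 at 303, 428 and 342 CPM in KO against 127 and 286 CPM in WT. In both, the sparse library held the extreme WT value. The log2 differences were -1.79 (SE 0.76, edgeR adjusted p = 0.765) and 0.77 (SE 0.35, adjusted p = 0.765), and without WT PSGL-1 replicate 1 they were 0.55 and 0.29. Without replicate 2 they were -2.60 and 1.53 and 9 members passed: Hmgcs1, Mvd, Ggps1, Nsdhl, Hsd17b7, Srebf2, Scarb1 and Soat1 higher in KO and Npc1 lower. In that fit 17.2% of all tested genes were called higher in KO and 2.68% lower. Fdps was at 694, 756 and 789.8 CPM in KO against 1255 and 776 CPM in WT, and Scap at 172, 190.0 and 170.0 CPM in KO against 322 and 186 CPM in WT, with overlap in both. In 5 members the KO libraries lay above the WT ones and in 1 below, where 11.5% and 6.32% of tested genes did so.

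Gene lists next to the pathway were described for vehicle culture against fresh cells. There 1.23% of all tested genes rose in each genotype, and 0.538% fell in KO and 0.404% in WT. Of 23 tested genes of other sterol processing, sensing and transfer, 1 rose and 1 fell in KO and 1 rose and none fell in WT. The one that fell in KO was Nceh1, a cholesteryl ester hydrolase (log2 -1.27, SE 0.30, edgeR adjusted p = 0.0410), and the one that rose in WT was Erg28, a scaffold of sterol demethylation (1.08, SE 0.23, adjusted p = 0.0281). The medians of this list were -0.07 in KO and -0.11 in WT. Of 18 genes that use isoprenoids, in protein prenylation and in dolichol and ubiquinone synthesis, none passed in either genotype, and their summed level was 846 CPM in KO vehicle culture against 849 CPM in KO fresh cells and 884 CPM in WT vehicle culture against 893 CPM in WT fresh cells. Of 12 fatty acid synthesis genes 2 rose in KO and 4 in WT, with medians of 1.60 and 1.21, among them the desaturase gene Fads2 (1.71, SE 0.32, and 1.52, SE 0.27).

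Cell cycle genes moved with the same comparison. Of 10 such genes 9 rose in KO and 8 in WT, and their sum was 3417 ± 225 CPM in KO vehicle culture against 917 ± 239 CPM in KO fresh cells, and 3411 ± 202 CPM in WT vehicle culture against 1468 ± 131 CPM in WT fresh cells. Mki67, a marker of cycling cells, had log2 fold changes of 2.08 (SE 0.28, edgeR adjusted p = 0.00112) in KO and 1.51 (SE 0.23, adjusted p = 0.00357) in WT. The part of cell cycling in the rise of the cholesterol genes was not tested.

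Markers of other cells moved as well. Of 6 granulocyte and monocyte markers, 5 were at 0 in 9 to 13 of the 16 libraries and Lyz2, at 80.8 to 643 CPM, in none. Their sum was 150.1 to 178 CPM in KO vehicle cultures against 649 to 907 CPM in KO fresh cells, and 80.8 to 309 CPM in WT vehicle cultures against 475 to 538 CPM in WT fresh cells. The 9 HSC markers summed to 1886 to 2042 CPM in KO vehicle cultures against 2363 to 2761 CPM in KO fresh cells, and to 1241 to 1806 CPM in WT vehicle cultures against 2103 to 2685 CPM in WT fresh cells. They did not all fall: 1 had a log2 fold change above 0 in KO and 2 in WT. In edgeR 1 was called higher in each genotype, and 1 lower in WT only. Of 4 T and NK cell markers, Nkg7 alone was detected, at 10.2 to 19 CPM in KO vehicle cultures against 17 to 42.9 CPM in KO fresh cells, and at 15.6 to 21.6 CPM in WT vehicle cultures against 59.3 to 91.5 CPM in WT fresh cells. The 5 red cell markers summed to 4.3 to 10.7 CPM in KO vehicle cultures against 41.9 to 83.9 CPM in KO fresh cells, and to 5.74 to 44.3 CPM in WT vehicle cultures against 34.5 to 157 CPM in WT fresh cells. The part of these shifts in the members' rise was not tested.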

How the data were processed

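RNA was isolated with an RNeasy Plus Micro kit and amplified with the SMART Ultra-Low Input v4 kit, per the labels' protocols. Per the submitters' processing notes, the tools were STAR 2.7.5c, featureCounts, MultiQC 1.10 and DESeq2, with mm10 as build. The sources used here give neither the annotation nor the strand setting nor the rule for multiply mapped reads. The values deposited by the authors are raw counts per gene symbol, not normalized. Levels are CPM, counts over the library total. Of 25239 genes, 14124 passed edgeR's filterByExpr by group. One edgeR 4.0.16 quasi-likelihood model (R 4.3.3, TMM scaling, robust, common biological coefficient of variation 0.977) was fitted to all 16 libraries with 1 mean per group, and two-sided p-values were Benjamini-Hochberg adjusted over all genes tested. Each SE is the absolute log2 fold change over the root of F. Levels per length used merged exons of GENCODE vM21 (GRCm38). The fitting code was run on simulated counts with planted changes. Their spread was smaller than that of these data, so the run does not show how the fit performs here.

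The members and lists were chosen with earlier results of these data known. Values in every library are given for the 8 members with the smallest and the 4 with the largest p in each vehicle against fresh comparison, the 4 with the smallest p in the other comparisons, and Srebf2, Insig1, Stard4 and Soat1, and the rest by ranges and counts. Promoters are those of the 3 members of smallest and 3 of largest p rank with an entry off chromosome 18. From each other list up to 3 members with the smallest adjusted p could be named. Some genes of these lists are not reported singly. Alternatives were DESeq2 1.42.0, limma 3.58.1 voom with quality weights, RLE scaling, 2 filters, the groups alone, each library left out and replicate blocks. No pair of libraries of a group agreed within sampling noise (smallest chi-square per degree of freedom 59.8). Library numbers run to 18, and those outside the 16 were not analysed here.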

Additional observations from a re-analysis of the deposited data

How the results depend on the processing

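Culture against fresh cells gave members higher and none lower under each alternative, with 2 exceptions, both for WT PSGL-1 culture. Fitted alone, its groups gave 0 calls among the members (9 in the full model) and 0 among all 12521 genes tested, and the cause was not tested. Without WT PSGL-1 replicate 2, 5 of 14 member calls were lower, as were 2669 of 3338 calls over all genes. DESeq2 called 17 and 15 members for vehicle against fresh cells in KO and WT, and limma 12 and 16. With single libraries left out, the counts ran from 10 to 17 (KO vehicle against fresh), 9 to 16 (WT vehicle against fresh), 8 to 16 (KO PSGL-1 against fresh), 8 to 14 (WT PSGL-1 against fresh), 0 to 9 (KO against WT with PSGL-1), 0 to 7 (WT PSGL-1 against vehicle) and 0 to 7 (difference of the PSGL-1 response), with the maxima of the last 4 without WT PSGL-1 replicate 2 and those of the other 3 without WT PSGL-1 replicate 1, and stayed at 0 in the other comparisons. Signs of small changes turned: Insig2, vehicle against fresh, WT (0.29 in limma; -0.51 to 0.82 with libraries left out), Ggps1, vehicle against fresh, KO (0.43 with a block by label set; -0.75 to 0.68, and 0.0039 without KO vehicle replicate 3), Insig2, vehicle against fresh, KO (-0.094 to 0.48), Npc2, vehicle against fresh, KO (-0.55 to 0.10), Scap, vehicle against fresh, KO (-0.41 to 0.92), Stard4, vehicle against fresh, WT (-0.15 to 0.50), Npc1, vehicle against fresh, WT (-0.31 to 0.58), Tm7sf2, vehicle against fresh, WT (-0.47 to 0.78) and Npc1, KO against WT, PSGL-1 (-2.60 to 0.55).

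Same-numbered libraries shared little deviation: the correlations of their deviations lay between -0.07 and 0.08, and those of library numbers in sets of 6 between -0.07 and 0.10. With so few libraries per group, such correlations cannot exclude pairing or batches. With the replicate block the counts of members called were 12 (KO vehicle against fresh), 13 (WT vehicle), 12 (KO PSGL-1) and 9 (WT PSGL-1), and 0 elsewhere. With the block by label set they were 11, 12, 12 and 9, with Insig1 lost in KO vehicle and Srebf2 in WT vehicle. Counts over all genes varied far more than those of the members. For vehicle against fresh cells they were 250 in KO and 231 in WT of 14124 in edgeR, 831 and 797 in DESeq2, and 542 and 706 in limma. In limma 180 of the 542 in KO were higher, against 174 of 250 in edgeR. Leaving out single libraries changed them as well. Without WT PSGL-1 replicate 1, where 17 members passed in KO and 16 in WT, they were 554 and 440 of 15095. In WT 9 members passed without fresh replicate 3 and without vehicle replicate 1. The counts over all genes were there 103 of 14009 and 122 of 14063.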
